A study of Mus musculus with 6 samples.

Results

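The genes described here are 31 genes of cholesterol and fatty acid synthesis, chosen by name and sorted by role into 14 enzymes of sterol synthesis, 5 regulators, 10 genes of fatty acid synthesis and 2 cholesterol efflux pumps. Where a gene had several probe sets, the one brightest on average (log2 intensity) stood for it, and all 31 were measured among 18193 genes in all. RNA came from 2 populations of blood-forming cells sorted by flow cytometry from wild-type C57BL/6 mice (3 arrays each), and the labels name no treatment of the animals. LSK cells were low in lineage markers and positive for Sca1 and Kit, a gate that holds the stem cells together with multipotent progenitors. LK cells were low in lineage markers, negative for Sca1 and positive for Kit, a gate that holds committed progenitors of several lineages. The labels give neither the age nor the number of animals and are silent on whether each array is a different animal. P-values therefore cover only the variation among these 6 samples, which may be technical. The question is which of these genes differ in RNA level between the Sca1-positive and the Sca1-negative population.

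Cells make cholesterol from acetyl-CoA through the mevalonate pathway, squalene and lanosterol, and make fatty acids from the same precursor through malonyl-CoA. The membrane-bound transcription factors SREBP1 and SREBP2, encoded by Srebf1 and Srebf2, are carried by the escort protein Scap to the Golgi and cut there when sterols are low, while the Insig proteins hold them back in the endoplasmic reticulum. SREBP2 acts mainly on sterol genes and SREBP1 mainly on fatty acid genes, often together with the CCAAT-binding factor NF-Y. When sterols accumulate, oxysterols activate the nuclear receptor LXR, which raises the efflux pumps Abca1 and Abcg1 and the gene for SREBP1. In blood stem cells, cholesterol efflux through these pumps is known to restrain proliferation.

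RefSeq promoter windows on GRCm38.p6 held an entry for 24 of the 31 genes, and no entry was matched for Fdps, Fdft1, Sqle, Scd1, Scd2, Fads1 and Abcg1. The 250 bases before the start were searched on both strands for 3 motifs: a sterol regulatory element (TCACNCCAC), the CCAAT box (CCAAT) and a direct repeat of the LXR type (GGTNA and GGNCA with 5 bases between them). The letters of the repeat were set after the windows had been looked at, so its matches are a description. The CCAAT box was present for 11 of 11 sterol synthesis enzymes with an entry and for 18 of the 24 genes, some of which have several windows. Counted by window it was present in 19 of their 32, against 33.8% of 32851 windows of the same length. The sterol regulatory element matched 1 of the 32 windows, that of Hmgcs1, against 1.05% of all windows. The direct repeat matched 3 of the 32 windows, of Srebf1, Fasn and Abca1, against 0.907% of all windows. The windows of the following 5 genes are shown as examples of the motifs in genes described below, of which Srebf2 and Fasn passed the test and Hmgcs1, Nsdhl and Abca1 did not, with matches in capitals: Srebf2 at chr15:82147019-82147268 on the + strand, Hmgcs1 at chr13:119690101-119690350 on the + strand, Nsdhl at chrX:72918271-72918520 on the + strand, Fasn at chr11:120824548-120824797 on the - strand and Abca1 at chr4:53159896-53160145 on the - strand.
Srebf2: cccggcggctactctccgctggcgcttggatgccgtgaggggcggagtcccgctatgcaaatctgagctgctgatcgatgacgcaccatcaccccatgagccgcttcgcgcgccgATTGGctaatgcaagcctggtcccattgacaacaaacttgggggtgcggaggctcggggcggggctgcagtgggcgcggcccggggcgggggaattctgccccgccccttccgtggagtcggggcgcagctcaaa
Hmgcs1: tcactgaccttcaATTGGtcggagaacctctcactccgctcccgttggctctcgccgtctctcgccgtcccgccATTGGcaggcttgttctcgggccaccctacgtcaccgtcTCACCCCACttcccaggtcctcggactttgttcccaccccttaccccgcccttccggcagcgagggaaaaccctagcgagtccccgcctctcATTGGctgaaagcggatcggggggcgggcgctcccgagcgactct
Nsdhl: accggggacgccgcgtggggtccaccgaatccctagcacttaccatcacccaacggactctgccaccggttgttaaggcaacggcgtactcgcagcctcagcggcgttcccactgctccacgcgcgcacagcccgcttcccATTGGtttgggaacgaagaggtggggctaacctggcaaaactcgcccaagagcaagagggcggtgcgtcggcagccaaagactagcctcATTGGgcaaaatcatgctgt
Fasn: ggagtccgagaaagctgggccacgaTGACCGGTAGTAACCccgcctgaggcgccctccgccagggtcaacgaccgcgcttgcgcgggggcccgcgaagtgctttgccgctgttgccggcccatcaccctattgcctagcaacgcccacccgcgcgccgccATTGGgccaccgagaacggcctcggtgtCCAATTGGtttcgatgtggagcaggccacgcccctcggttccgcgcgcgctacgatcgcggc
Abca1: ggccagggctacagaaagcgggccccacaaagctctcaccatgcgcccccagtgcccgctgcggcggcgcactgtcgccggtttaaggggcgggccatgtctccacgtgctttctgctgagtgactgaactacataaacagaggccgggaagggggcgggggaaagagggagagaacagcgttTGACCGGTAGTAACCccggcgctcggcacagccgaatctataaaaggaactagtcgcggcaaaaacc
Counted back from the start as -1, the sterol regulatory element of Hmgcs1 lay from -137 to -129. The direct repeat of Abca1 lay from -67 to -53 and that of Fasn from -225 to -211, and both read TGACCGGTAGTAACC on the printed strand. Of the 3 CCAAT matches in Fasn, the one at -62 to -58 and the one at -59 to -55 overlap on opposite strands. The window of Acaca held none of the 3 motifs. A match describes these letters and was not tested as a site.

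The 31 genes lay on both sides of 0. Their median log2 difference, LSK minus LK, was 0.03, against -0.02 for all genes, with 16 above 0 and 15 below (53.4% of all genes were below). The limma test, adjusted over all genes with a threshold of 0.05, called 4 of the 31 (12.9%), against 6.73% of all genes. Higher in LSK were Abcg1, a cholesterol efflux pump, and Srebf2 (2 of 31, against 3.84% of all genes). Lower in LSK were Acaca and Fasn, which carry out the first committed step and the chain building of fatty acid synthesis (2 of 31, against 2.89% of all genes). The populations did not overlap for 9 of the 31 (29.0%), against 28.0% of all genes, with 6 higher and 3 lower against 13.2% and 14.8%, so separation of the arrays was about as frequent here as elsewhere. With the replicate number as a block, 7 of the 31 passed (22.6%), 3 higher and 4 lower, against 14.4% of all genes (7.02% higher and 7.36% lower). At an unadjusted p under 0.05 there were 10 (32.3%), against 22.4% of all genes. Genes with a mean log2 under 4 in both populations were 22.6% of the 31 and 56.2% of all genes, so these shares compare genes of unlike brightness. Without genes whose mean log2 over the 6 arrays was under 4, limma called 4 of 23, against 19.3% of 7508 genes. Among these brighter genes the share was no higher than over all of them.

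**Figure D1:**
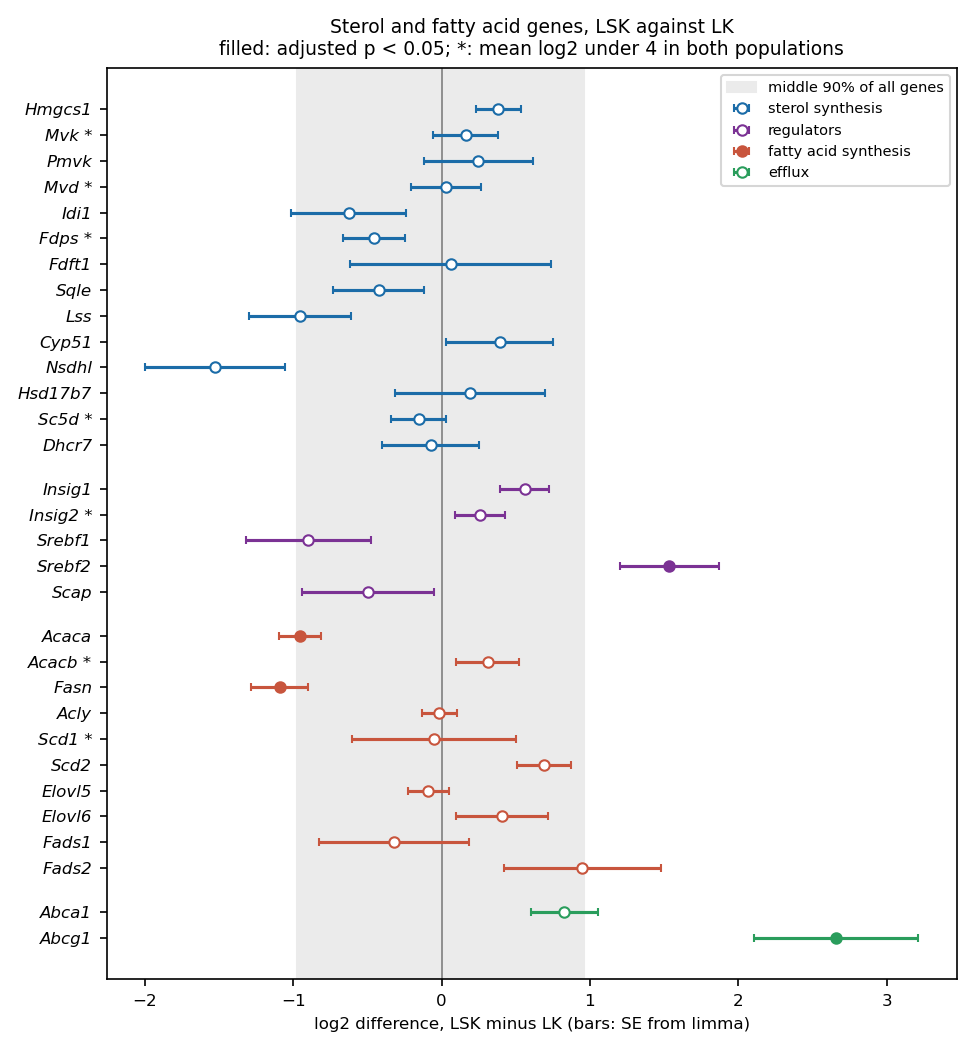
The log2 difference in intensity, LSK minus LK, of each of the 31 genes is plotted with its limma standard error, coloured by role, and filled where the adjusted p was under 0.05. The grey band spans -0.98 to 0.96, the middle 90% of all genes, and Abcg1 at 2.66, Srebf2 at 1.54, Nsdhl at -1.53 and Fasn at -1.09 lie outside it.

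Among the regulators, Srebf2 was 2.90-fold higher in LSK. Its log2 intensity was 7.89, 7.37 and 6.78 on LSK arrays 1 to 3 and 6.21, 5.35 and 5.87 on LK arrays 1 to 3. Each LSK array was above each LK array, and the gap between the lowest LSK and the highest LK value was smaller than the range within LSK. The means were 7.35 ± 0.56 (SD, n = 3) and 5.81 ± 0.44 (SD, n = 3), a log2 difference of 1.54 (SE 0.34, 95% interval up to 2.34, limma adjusted p = 0.0453). The gene's other probe set gave a log2 difference of 1.23 in the same direction. The call depended on single arrays: it held in 1 of the 6 fits that left out 1 array, that without LSK replicate 3 (0.0285), and the adjusted p reached 0.135 without LK replicate 3. Averaging the probe sets (0.0637) leaving out suffixed ones (0.052) or leaving out both arrays numbered 2 (log2 1.29, 0.162) also ended it.

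Srebf1, the gene for the factor that favours fatty acid synthesis, did not pass. Its log2 intensity was 6.29, 4.97 and 6.60 on LSK arrays 1 to 3 and 6.90, 7.12 and 6.54 on LK arrays 1 to 3. The LSK replicate 2 array lay below the rest, and the highest LSK array was just above the lowest LK array, so the populations overlapped. The log2 difference was -0.90 (SE 0.42, limma adjusted p = 0.275). Set against each other within arrays, Srebf1 and Srebf2 differed in their LSK to LK difference by -2.44 (SE 0.75). An exact two-sided permutation test gave p = 0.1, the smallest that 3 arrays against 3 allow, and 0.2 adjusted over the 6 paralog pairs compared.

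Insig1, which retains SREBP when sterols are plentiful, had log2 intensities of 10.40, 10.11 and 10.31 in LSK and 9.69, 9.51 and 9.95 in LK. All LSK arrays were above all LK arrays, but the log2 difference of 0.56 (SE 0.16) did not pass limma (adjusted p = 0.0981). Insig2, its paralog, had means of 3.73 ± 0.14 and 3.47 ± 0.26 (SD, n = 3), which is close to the dimmest signals measured. The log2 difference was 0.26 (adjusted p = 0.445), and its other probe sets lay below 0 (down to -0.66). Scap, the SREBP escort, had a log2 difference of -0.50 (adjusted p = 0.588), and its LSK arrays spread from 4.11 to 6.04 around LK values of 5.50 to 5.59. In all, 1 of 5 regulators was higher, 0 lower and 4 did not pass.

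Of the 14 enzymes of sterol synthesis, none passed limma in either direction, and 3 had an unadjusted p under 0.05, 1 higher and 2 lower. Their median log2 difference was -0.02, with 7 above 0 and 7 below, from -1.53 for Nsdhl to 0.39 for Cyp51. At the entry to the pathway, Hmgcs1, which makes HMG-CoA and whose promoter holds the sterol regulatory element shown above, had log2 intensities of 10.83, 10.49 and 10.46 in LSK and 10.27, 10.28 and 10.08 in LK. The arrays separated by population with a small gap, and the log2 difference was 0.38 (SE 0.15, limma adjusted p = 0.203). The other Hmgcs1 probe sets gave log2 differences from -0.13 to 0.53, and averaging all of them gave 0.19 (limma adjusted p = 0.495). The 3 mevalonate enzymes that follow, Mvk, Pmvk and Mvd, had log2 differences of 0.16, 0.25 and 0.03, with adjusted p of at least 0.735. Both Mvk and Mvd lay near the lower end in both populations.

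None of the enzymes from isopentenyl diphosphate to lanosterol passed limma. Idi1, the isomerase, had a log2 difference of -0.63 (SE 0.39, adjusted p = 0.413), Fdps, which makes farnesyl diphosphate, -0.46 (SE 0.21, adjusted p = 0.266) and the epoxidase gene Sqle -0.42 (SE 0.31, adjusted p = 0.491). Fdps lay near the lower end in both populations, with means of 2.76 in LSK and 3.21 in LK. Of the 14 sterol enzymes, 5 were lower in LSK in 3 of 3 same-numbered pairs of arrays, Fdps among them, and 1 was higher. Of the 31 genes, 7 were lower in 3 of 3 pairs and 8 higher, against 27.3% and 22.6% of all genes. Fdft1, squalene synthase, spread from 4.36 to 5.77 in LSK and from 3.81 to 6.26 in LK, and its log2 difference of 0.06 has an SE of 0.68, too wide to place it. Lss, which closes the sterol rings, had log2 intensities of 3.51, 2.92 and 2.85 in LSK and 4.71, 3.46 and 3.98 in LK. LSK was lower in every same-numbered pair, although LSK replicate 1 exceeded LK replicate 2. The log2 difference was -0.96 (SE 0.34, limma adjusted p = 0.160), and of the alternative fits it passed only with the replicate number as a block (0.0254). One of the other Lss probe sets pointed the same way and the third the opposite way (0.26).

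The later steps, which trim lanosterol to cholesterol, were mixed. Nsdhl, which removes the methyl groups at the fourth carbon, had the largest difference of the sterol enzymes, with log2 intensities of 4.39, 2.88 and 4.57 in LSK and 5.70, 4.96 and 5.75 in LK. Replicate 2 was the lowest array of each population, and no LSK array reached the lowest LK array. The means were 3.94 ± 0.93 and 5.47 ± 0.44 (SD, n = 3), a 2.88-fold difference (log2 -1.53, SE 0.47) that did not pass limma (adjusted p = 0.113). It passed in 3 of 16 alternative fits: with the replicate number as a block (0.0129), with array weights (0.0344) and without both arrays numbered 2 (0.0315). Cyp51, the lanosterol demethylase, had a log2 difference of 0.39 (adjusted p = 0.597), Hsd17b7 0.19 (0.871), Sc5d -0.16 (0.698) and Dhcr7, the last reductase, -0.07 (0.930). Sc5d lay near the lower end in both populations. For Hsd17b7, 1 of the other probe sets was lower in LSK at an unadjusted p under 0.05, the only such reversal among the 31 genes.

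**Figure D2:**
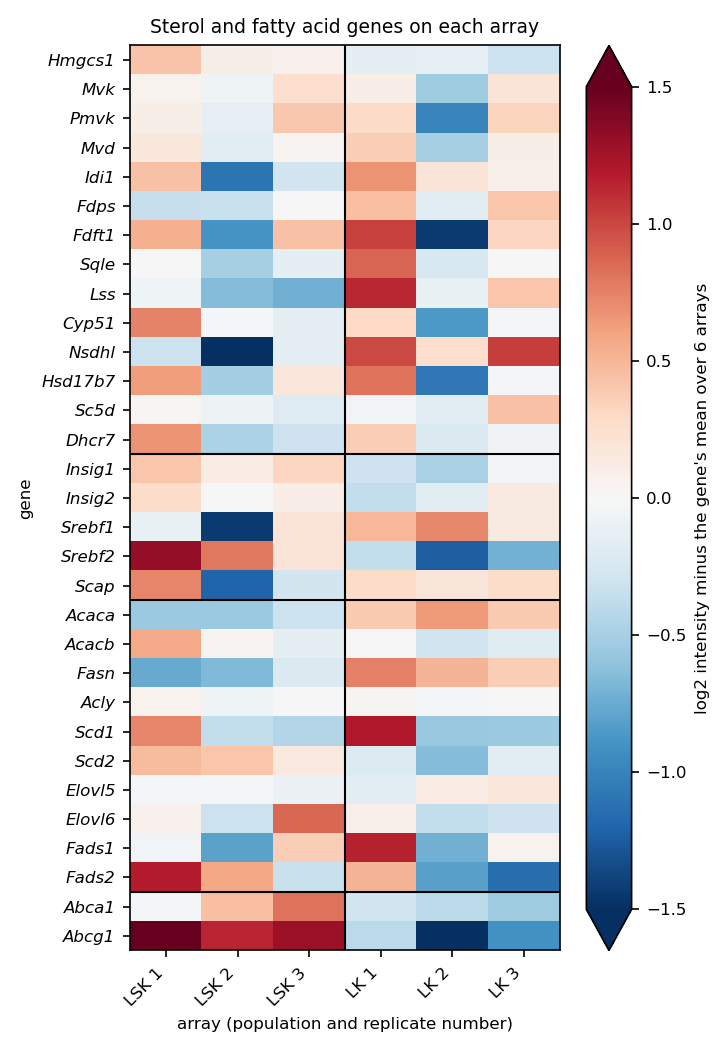
Each cell is the log2 intensity of a gene on an array minus the gene's mean over the 6 arrays, with LSK arrays to the left of the vertical line and LK arrays to its right. The rows of Abcg1, Srebf2, Acaca and Fasn change colour at the line, as do those of Insig1 and Scd2 and, in the sterol synthesis block, Hmgcs1 and Nsdhl. In that block the replicate 2 column of LK is the lowest of its population for 12 of 14 genes.

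Replicate 2 was the lowest array of LK for 12 of the 14 enzymes and the lowest of LSK for 9 of 14, against 41.2% and 41.8% of all genes and 54.3% and 56.8% of genes that reached a mean log2 of 4 in at least 1 population. The mean log2 intensity over the 14 enzymes was 5.43, 4.73 and 5.17 on LSK arrays 1 to 3 and 5.72, 4.78 and 5.41 on LK arrays 1 to 3. The replicate 2 arrays also had the lowest upper quartile of all probe sets in each population, 22.0 and 20.8 against 24.2 to 25.7 on the others. The part of these arrays in the spread was not tested.

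Both genes that were lower in LSK carry out central steps of fatty acid synthesis. Acaca, acetyl-CoA carboxylase 1, which makes malonyl-CoA in the cytosol, had log2 intensities of 6.03, 6.04 and 6.27 in LSK and 6.98, 7.23 and 6.98 in LK. The arrays within each population lay close together and the populations were well apart. The means were 6.11 ± 0.14 and 7.06 ± 0.14 (SD, n = 3), a 1.94-fold lower level in LSK (log2 -0.95, SE 0.14, limma adjusted p = 0.0151). The call held in 4 of the 6 fits that left out 1 array, was lost without LSK replicate 1 (0.0711) or LK replicate 3 (0.0625), and was also lost without both arrays numbered 2 (0.0693). A second probe set near the lower end gave 0.11, and averaging it in gave a log2 difference of -0.42 (0.0837).

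Fasn, the synthase that builds palmitate, had log2 intensities of 4.60, 4.69 and 5.13 in LSK and 6.11, 5.86 and 5.72 in LK. No LSK array reached the lowest LK array. The level was 2.13-fold lower in LSK (log2 -1.09, SE 0.19, limma adjusted p = 0.0243), from the gene's only probe set. Leaving out any array other than LSK replicate 3 ended the call (adjusted p up to 0.0902, without LSK replicate 1), as did trend and robust variances (0.0548) and leaving out both arrays numbered 2 (0.107).

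The other genes of this group did not pass. Acly, which supplies cytosolic acetyl-CoA, differed by -0.01 on the log2 scale (SE 0.12, 95% interval up to 0.26), and Elovl5, an elongase of polyunsaturated chains, by -0.09 (SE 0.14, 95% interval up to 0.24), and the lower bounds were -0.29 and -0.42, so a fall as large as that of Acaca lies outside both intervals. Scd2, a desaturase that makes monounsaturated chains, had log2 intensities of 10.46, 10.40 and 10.14 in LSK and 9.78, 9.33 and 9.81 in LK. The populations did not overlap, and the log2 difference was 0.69 (SE 0.18, limma adjusted p = 0.0725). It passed in 4 of 16 alternative fits: trend and robust variances (0.0398), renewed quantile (0.0464) or cyclic loess normalisation (0.0365), and array weights (0.0489). Of the 6 fits that left out 1 array, 0 called it (adjusted p from 0.0819 to 0.207). All 3 Scd2 probe sets were above 0. Its paralog Scd1 lay near the lower end, with values of 2.56 to 4.33 and the replicate 1 arrays highest in both populations.

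Fads2 and Fads1, the desaturases of long polyunsaturated chains, had log2 differences of 0.95 (SE 0.53, adjusted p = 0.360) and -0.32 (SE 0.51, adjusted p = 0.775). Fads2 was 6.94, 6.35 and 5.43 in LSK and 6.27, 4.96 and 4.64 in LK. Each LSK array was above the LK array of the same number, while LSK replicate 3 lay below LK replicate 1, and the difference passed with the replicate number as a block (0.0282). Its other probe sets gave 0.59 and -0.46, and averaging all of them gave 0.36 (limma adjusted p = 0.612). With the excess of 3' over 5' control signal (given at the end) as a covariate the difference was -0.16. Elovl6, the elongase of palmitate, had a log2 difference of 0.41 (adjusted p = 0.517), with LSK replicate 3 at 7.65 and the other 5 arrays between 6.41 and 6.86. Acacb, the mitochondrial carboxylase isoform, lay near the lower end (0.31, adjusted p = 0.462). The within-array difference between Acaca and Acacb was -1.26 (SE 0.32), and the exact two-sided permutation test gave p = 0.1, the smallest possible, and 0.2 adjusted over the 6 pairs. Of the other pairs, Insig1 against Insig2 gave 0.30 (exact p = 0.1), and Scd1 against Scd2 (-0.74), Elovl5 against Elovl6 (-0.50) and Fads1 against Fads2 (-1.27) gave exact p = 0.3 each. With 3 arrays against 3 this permutation test cannot reach the threshold, so it does not decide whether any pair differs.

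**Figure D3:**
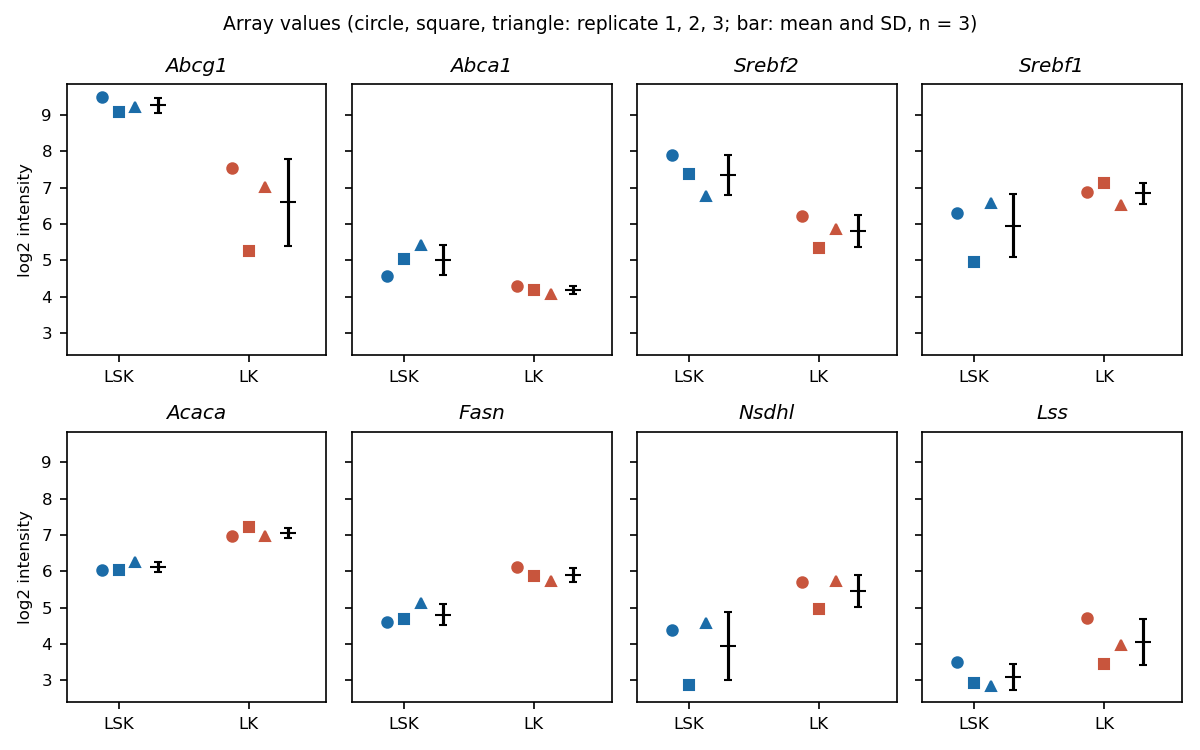
Log2 intensities on the 3 LSK and 3 LK arrays are shown for the 2 genes of each role with the largest difference and those that passed, with the mean and SD to the right of each set of points. The populations separate for Abcg1, Abca1, Srebf2, Acaca, Fasn and Nsdhl and overlap for Srebf1 and Lss.

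The largest difference of all 31 genes belonged to Abcg1, the pump that passes cholesterol to high-density lipoprotein. Its log2 intensity was 9.51, 9.09 and 9.22 in LSK and 7.54, 5.26 and 7.03 in LK. LSK arrays lay close together and above every LK array, while LK replicate 2 was well below the other LK arrays. The means were 9.27 ± 0.21 and 6.61 ± 1.20 (SD, n = 3), 6.32-fold higher in LSK (log2 2.66, SE 0.55, limma adjusted p = 0.0397). The other probe set was also higher in LSK (0.54), but it lay near the lower end, with means of 3.76 in LSK and 3.22 in LK. Without LK replicate 2 the log2 difference was 1.99 and still passed (0.0169), as it did without LK replicate 1 (0.0358), and the call was lost without LSK replicate 1 (0.129), LSK replicate 2 (0.0901), LSK replicate 3 (0.0788) or LK replicate 3 (0.103).

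Abca1, which loads cholesterol onto lipid-poor apolipoprotein, had log2 intensities of 4.58, 5.05 and 5.41 in LSK and 4.29, 4.19 and 4.07 in LK. The populations did not overlap, and the gap between LSK replicate 1 and LK replicate 1 was narrow. The 1.78-fold difference (log2 0.83, SE 0.22) did not pass limma (adjusted p = 0.0793) and, of 16 alternative fits, passed only with array weights (0.0410). Its other probe sets lay near the lower end, with log2 differences of 0.06 and -0.16. Both pumps are also expressed by macrophages. Of 6 macrophage markers, 5 lay under a mean log2 of 4 in both populations (Adgre1, Cd68, Mertk, C1qb and Marco). Among these, C1qb passed, higher in LSK (adjusted p = 0.0108), at means of 3.84 and 2.34, where the size of a difference cannot be read. The summed intensity of the 6 was 56.3 to 92.4 in LSK and 59.7 to 340 in LK. The log2 intensity of Vcam1, the sixth marker, was 4.41, 6.70 and 8.23 on LK arrays 1 to 3. It passed limma, lower in LSK, with the block (adjusted p = 0.0363) and did not pass without it (0.222).

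Genes of the neighbouring pathways, listed by role, were compared in the same fit, and 54 of 60 were measured. Of these, 8 passed (6.73% of all genes did), 2 higher and 6 lower (3.84% and 2.89% of all genes), with a median log2 difference of -0.17, against -0.02 for all genes. Near the lower end lay 15 of the 54, against 56.2% of all genes, so these shares too compare genes of unlike brightness. Among sterol uptake and transport genes 1 of 8 passed: Vldlr, a receptor for triglyceride-rich lipoproteins, had log2 intensities of 9.80, 10.19 and 9.83 in LSK and 5.66, 6.33 and 5.17 in LK. The 2 sets of arrays were far apart, an 18.6-fold higher level in LSK (log2 4.22, SE 0.30, limma adjusted p = 0.00158) that passed in 6 of 6 fits without 1 array. All 6 Vldlr probe sets were higher in LSK, with log2 differences from 0.68 to 4.22. Stard4, a carrier of cholesterol inside the cell, was 2.18-fold higher in LSK without passing (adjusted p = 0.0817) and passed with the block (0.0250).

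Among 7 other sterol and isoprenoid enzymes, 1 was higher, Ggps1, which makes geranylgeranyl diphosphate for protein prenylation (1.97-fold, adjusted p = 0.0279, in 1 of 6 fits without 1 array). Among 6 genes of SREBP processing and turnover, 1 was lower, Erlin1, an endoplasmic reticulum protein that takes part in turnover of sterol-regulated proteins (1.86-fold, adjusted p = 0.0169, in 4 of 6 fits). Averaging probe sets ended both calls, with log2 differences of 0.68 for Ggps1 (limma adjusted p = 0.125) and -0.59 for Erlin1 (0.0785). None of 6 genes of the LXR list passed limma, and 3 had an unadjusted p under 0.05, 2 higher and 1 lower. Of the 6, 3 were above 0 and 3 below. With the block, Rxra, the partner receptor of LXR, was higher in LSK (log2 0.97, adjusted p = 0.215 without the block and 0.0137 with it). Its populations overlapped, and it was dim, with a mean log2 of 4.29 in LSK and 3.33 in LK.

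Of 18 further genes of fatty acid synthesis, 4 were lower in LSK (2.89% of all genes were), 0 higher (3.84% of all genes) and 14 did not pass, with a median log2 difference of -0.23, against -0.02 for all genes. The 4 were Elovl1, an elongase of very long chains (2.03-fold, adjusted p = 0.0137), Tecr, the reductase that ends each round of elongation (2.04-fold, 0.0455), Hacd2, the dehydratase of the same cycle (1.74-fold, 0.0472) and Acsl5, which activates fatty acids with coenzyme A (2.03-fold, 0.0485). Elovl1 passed in 4 of 6 fits without 1 array, Tecr in 1, and Hacd2 and Acsl5 in 0. The other probe set of Hacd2, near the lower end, gave 0.05, and averaging it in gave -0.38 (limma adjusted p = 0.205). Averaging the probe sets of Tecr gave -0.87 and ended its call (limma adjusted p = 0.262), while Elovl1 still passed when averaged (0.0461). Hsd17b12, the ketoreductase of the elongation cycle, had a log2 difference of 0.61 toward LSK and did not pass (adjusted p = 0.123). In fatty acid oxidation 1 of 9 passed: Hadhb, a subunit of the mitochondrial trifunctional protein, was 2.54-fold lower in LSK (adjusted p = 0.0451, in 1 of 6 fits). Its other probe sets pointed opposite ways, with log2 differences of -1.06 and 0.47, and averaging all of them gave -0.64 (limma adjusted p = 0.0751). With the block Acadvl was lower too (log2 -0.93, adjusted p = 0.283 without the block and 0.0196 with it). The oxidation list went both ways, with 3 genes above 0 and 6 below. At an unadjusted limma p under 0.05, 2 of its genes were higher in LSK and 2 lower.

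**Figure D4:**
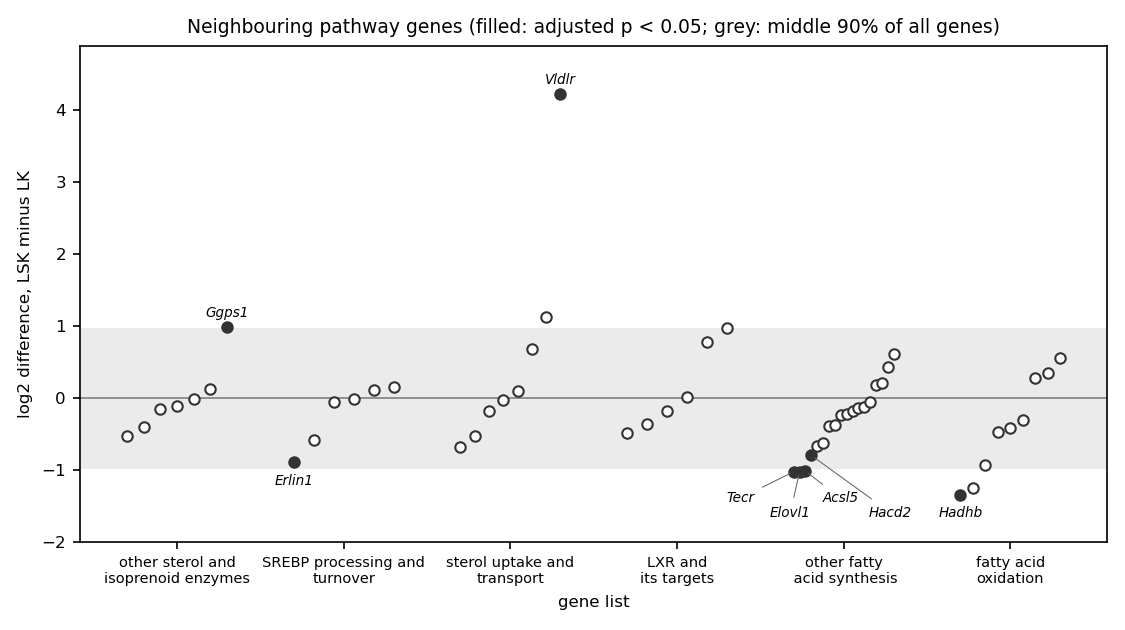
Each point is the log2 difference in intensity, LSK minus LK, of 1 of the 54 measured neighbouring genes, arranged by list and filled where the adjusted p was under 0.05. Vldlr stands alone at 4.22, and the filled points of the fatty acid synthesis and oxidation lists lie below 0, from -1.34 for Hadhb to -0.80 for Hacd2.

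Other properties of the samples also moved with the populations, and their part in the differences above was not tested. Stem cell markers were higher in LSK for 5 of 5 measured (summed intensity 3573 to 4627 in LSK and 272 to 421 in LK), erythroid markers lower for 4 of 5 (55.0 to 128 and 2413 to 6012), and granulocyte and monocyte markers lower for 4 of 6 (4379 to 9059 and 13470 to 25400). With the replicate number as a block these were 5 of 5, with Epor (limma adjusted p = 0.0262), and 6 of 6, with Csf1r (0.0215) and Ly86 (0.0079). Of 4 measured markers of cycling cells, Mki67 and Mcm2 were lower in LSK (1.97-fold and 2.07-fold), and the summed intensity of the 4 was 1924 to 2513 in LSK and 3069 to 3498 in LK. Lymphoid-primed markers were higher in LSK for 3 of 4 (5410 to 5855 and 709 to 764). Neither adipocyte markers (2 measured, summed intensity 12.95 to 14.5 and 13.4 to 19.2) nor B cell (2 measured) nor T and NK cell markers (3 measured) passed limma, with 0, 0 and 1 at an unadjusted p under 0.05. In such mixed populations fewer cells of a type and less RNA per cell cannot be told apart. As a sign of RNA quality, the excess of 3' over 5' signal (log2) in the Actb and Gapdh controls was 2.32, 2.32 and 3.30 on LSK arrays 1 to 3 and 3.26, 3.94 and 3.40 on LK arrays 1 to 3. With this value as a covariate none of the 31 genes passed limma (4 at an unadjusted p under 0.05), against 0.137% of all genes. Only LSK array 3 lay within the range of the LK arrays, so this fit can hardly separate the covariate from the population. The log2 difference was then 1.76 for Abcg1, 0.68 for Srebf2, -0.70 for Acaca and -0.83 for Fasn, each in its earlier direction.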

How the data were processed

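Linearly amplified RNA of each sorted sample was put on an Affymetrix mouse array after biotin labelling, per the labels' protocols. The authors deposited linear probe set intensities, which, per the submitters' processing notes, come from RMA in affy with R 2.11.0. The deposited arrays do not share 1 distribution (upper quartiles of 20.8 to 25.7). Detection calls were not used here. Near the lower end means a mean log2 under 4 in both populations (7 of the 31 genes, 56.2% of all genes), where differences are compressed. No gene was filtered out of the fit reported.

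Of 45037 probe sets (64 controls apart), 34945 carried 1 symbol in the platform annotation, and 34741 matched a RefSeq table of GRCm38.p6. The build behind the array annotation is not given in the sources used here. Log2 intensities were tested with limma 3.58.1 under R 4.3.3, with population as sole factor and Benjamini-Hochberg adjustment over 18193 genes, after the script was tested on simulated data. SDs are on the log2 scale, and precision is limited by 3 arrays a group. Members and lists were chosen with earlier results of these data known. All members are named, with array values for those past the threshold and the 2 largest differences of each role, as are neighbouring genes past the threshold. Array values of other members, and Stard4, Hsd17b12, Rxra and Acadvl, were added after their values were seen.

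Same-numbered samples deviated together from their population means (correlation across genes 0.42, 0.43 and 0.27). The numbers were therefore used as a block in an alternative fit, on the data and not on the labels, and whether they mark true pairs is not known. The part of the replicate 2 arrays, with their low upper quartiles, in this correlation was not tested. The fit reported keeps population as sole factor, and values with the replicate block are printed where they change a call or a count of markers. Other alternatives were normalisation, probe set choice, a dim filter, variance settings, array weights, a 3' to 5' covariate and leaving out arrays.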

Additional observations from a re-analysis of the deposited data

How the results depend on the processing

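The direction of Abcg1, Srebf2, Acaca and Fasn was the same under all 16 alternatives, whereas calls near the threshold came and went. For most alternatives that direction was fixed in advance. The block, the dim filter, the variance settings and leaving out suffixed probe sets keep the log2 difference of these genes. Leaving out or weighting arrays cannot reverse it, since the populations did not overlap. Only the normalisations, averaged probe sets and the covariate could have done so. The count of the 31 genes past the threshold, 4 in the limma fit reported, was 7 with the replicate number as a block, 7 with array weights, 2 with averaged probe sets or with both replicate 2 arrays removed, and 0 with the control-signal covariate (4 at an unadjusted p under 0.05). It ranged from 0 to 3 without 1 array: 0 if LSK replicate 1 (11 at an unadjusted p under 0.05) or LK replicate 3 (7) was removed, 1 for LSK replicate 2, and 2 for either of the other LK arrays. Over all genes, where 1225 passed, the count was 2617 with the block, 2606 with array weights 537 with both replicate 2 arrays removed and 25 with the covariate, and from 306 to 1269 without 1 array. The median of the 31 genes was -0.072 with averaged probe sets and -0.257 with the covariate, and from -0.196 to 0.22 without 1 array, so its sign is not fixed. The count of neighbouring genes, 8, was 11 with the block or array weights, 9 with either other normalisation, 4 with averaged probe sets, 3 without suffixed probe sets, 2 with both replicate 2 arrays removed and 0 with the covariate (limma), and from 1 to 6 without 1 array. The block changed no calls of the 31 or the neighbouring genes other than those given.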
